A study of Mus musculus with 6 samples.

Results

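N-linked glycosylation attaches a preassembled sugar tree to asparagine residues of proteins that enter the endoplasmic reticulum (ER). The tree is first built on the membrane lipid dolichol, then moved to the protein by the oligosaccharyltransferase, and finally trimmed. The trimmed glycan is read by the lectin chaperones calnexin and calreticulin, which hold the protein until it is folded. Hepatocytes secrete most plasma proteins, and many of these carry N-glycans.

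The 34 genes described here were chosen by their place in this pathway, with earlier results of these data known. Of these, 19 belong to lipid-linked glycan assembly, 9 to the oligosaccharyltransferase and 6 to glycan trimming and the calnexin cycle. Their mRNA was measured in the liver of 3 control (CT) and 3 LERKO female mice on the C57BL/6J background, each mouse on an Affymetrix Mouse Gene 1.1 ST array of its own. All mice carried ERα fl/fl alleles, which cre recombinase can delete. LERKO mice also carried cre under the albumin promoter, which is active in hepatocytes, whereas CT mice carried no cre. The transgene and the loss of ERα thus cannot be told apart. The paper gives non-parenchymal liver cells as the most likely source of the ERα that remained in LERKO liver. Ages of these animals are not given in the sources used here. Signals are robust multichip average (RMA) values on the log2 scale, and differences are LERKO minus CT. A single-gene probe set existed for 33 of the 34 genes, out of 18820 genes on the array. Alg1 was left out because its probe sets match several genes. A signal of at least 100 (6.64 on the log2 scale) in 1 or more arrays was reached by 28 of the 33, and these 28 were tested within the fit of 10633 probe sets.

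Each array carried the Esr1 level of its label, with 8.29 to 8.78 in CT mice and 6.75 to 7.06 in LERKO mice. The 7 hepatocyte markers all passed the filter, and their summed linear signal was 56749 to 60541 in CT and 55619 to 58508 in LERKO. A pair of arrays held signal of other tissues. In CT replicate 3 the summed signal of 6 measured pancreatic acinar markers was 1828, beside 75 to 82 in the other mice, that of 6 skeletal muscle markers was 958, beside 83 to 255, and that of 4 squamous epithelium markers was 1343, beside 47 to 60. In LERKO replicate 2 the sum of 7 adrenal cortex markers was 6902, beside 78 to 105. Its skeletal muscle sum of 255 was also above the 83 to 112 of the mice other than CT replicate 3. The sums overlapped between the groups for Kupffer cells (1860 to 3057 in CT, 2532 to 2903 in LERKO), sinusoidal endothelium (2414 to 3105, 2444 to 2783), stellate cells (3383 to 4838, 3637 to 4340) and plasma and B cells (130 to 163, 121 to 178). Over 4 cholangiocyte markers, of which 1 passed the filter, the sums were 169 to 215 in CT and 147 to 156 in LERKO. In bulk liver, fewer cells of a type and less RNA per cell cannot be told apart. The part of these tissues in the results was not tested, and values without the 2 arrays are given for the genes with the largest differences.

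The listed genes of the oligosaccharyltransferase that passed the filter had lower mean levels in LERKO than in CT liver in 8 of 8 cases. The subunits Ost4 and Krtcap2, outside this list, differed by −0.02 and −0.07 with overlapping groups. Those of glycan assembly lay on both sides of 0, with the initiating enzyme Dpagt1 lower and the mannosyltransferase Alg2 higher. The lectin chaperones Canx and Calr differed by less than 0.2 on the log2 scale. No single gene of the pathway passed the test over the whole array. At an adjusted p under 0.05 from limma, 0 of the 28 genes were called, and 0% of all probe sets were. The deleted gene Esr1 was not called in this fit either (log2 difference −1.65, adjusted p = 0.149 from limma). The absence of calls is therefore not evidence of equal levels. The paper called 3 genes at a false discovery rate of 0.05, Esr1 among them. Where all 6 arrays had to reach a signal of 100, 3 probe sets were called here. They included Esr1 (adjusted p = 0.0409 from limma), and 0 of the 27 pathway genes kept by that filter were called. In the fit of 10633 probe sets, 7 of the 28 were lower and 2 were higher at an unadjusted p under 0.05. That was 32.1%, beside 4.0% lower and 2.98% higher (6.98% together) over all probe sets. The mice of the 2 groups did not overlap for 9 genes with lower and 2 with higher LERKO signals, or 39.3%, beside 7.13% and 5.91% (13.0% together) over all probe sets. Of the 28 differences 21 lay below 0 (75.0%), beside 53.5% of all probe sets, and their median was −0.06, beside −0.01. These shares describe genes that share mice and are not independent of one another. The list was also chosen with earlier results of these data known, so the shares are a description and not a test.

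**Figure D1:**
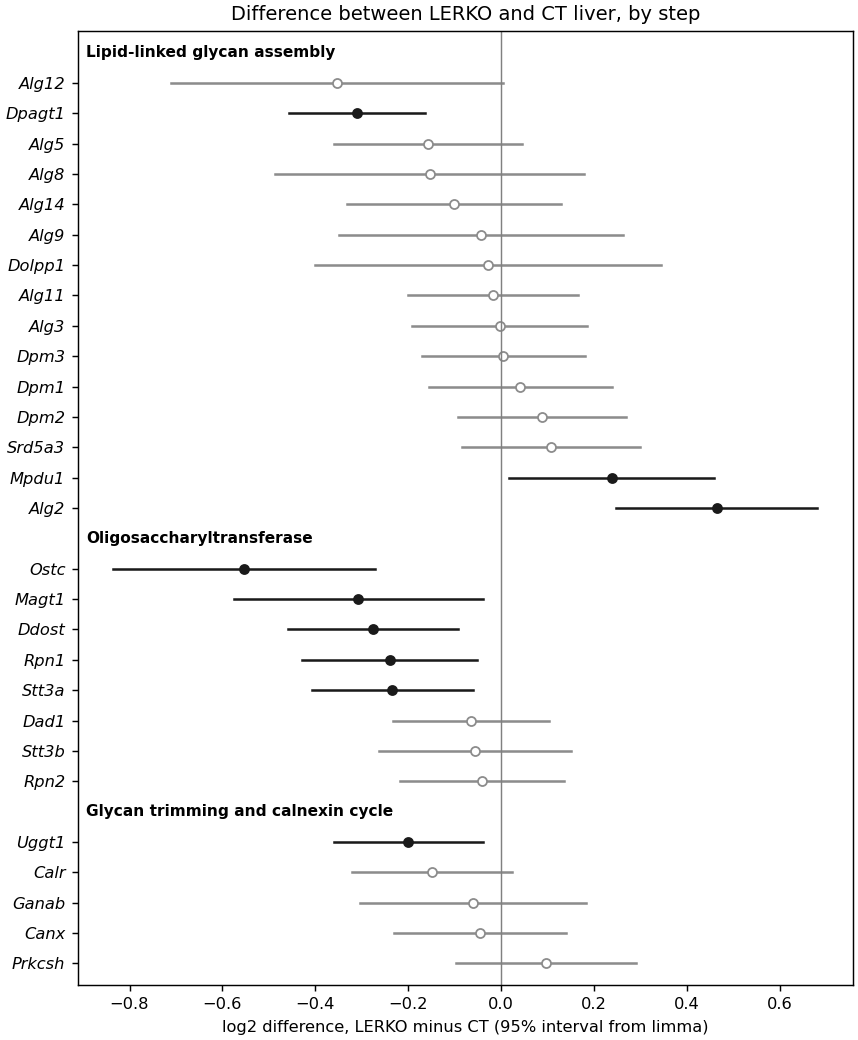
Log2 difference of LERKO minus CT liver for the 28 genes past the signal filter, grouped by step, with the 95% interval from limma; filled points have an unadjusted p under 0.05 and open points do not. All 8 oligosaccharyltransferase genes lie below 0, and Alg2 at 0.46 is the highest of the 28.

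In the oligosaccharyltransferase, the median log2 difference was −0.24 over the 8 listed genes measured above the filter (range −0.55 to −0.04). At an unadjusted p under 0.05, 5 of the 8 were lower and 0 higher, beside 4.0% and 2.98% of all probe sets. These 5 genes also had no overlap between the groups, beside 7.13% of all probe sets with lower LERKO signals. Ostc had the largest difference of the pathway. It is a small subunit of the complex built around Stt3a and links that complex to the protein translocation channel. Its signals were 9.64, 9.54 and 9.33 in CT mice and 8.81, 9.13 and 8.91 in LERKO mice. The lowest CT mouse was thus 0.20 above the highest LERKO mouse. Ostc was 1.47-fold lower in LERKO (95% interval 1.21 to 1.78, adjusted p = 0.703 from limma), and its log2 difference was −0.64 without CT replicate 3 and −0.64 without LERKO replicate 2.

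Stt3a and Stt3b are the alternative catalytic subunits, of which Stt3a mostly glycosylates proteins while they are translocated and Stt3b also acts on sites that were skipped. Stt3a had signals of 9.83, 9.94 and 9.82 in CT and 9.56, 9.65 and 9.69 in LERKO, without overlap. Its log2 difference was −0.23 (standard error 0.07, adjusted p = 0.703 from limma). Stt3b had 9.84, 9.94 and 9.77 in CT and 9.81, 9.68 and 9.89 in LERKO, so that the groups overlapped, with a difference of −0.06 (95% interval −0.26 to 0.15). Stt3b has 2 single-gene probe sets, and with the mean of both the difference was −0.02. The signal of Stt3a minus that of Stt3b in the same array, a comparison chosen after the values were seen, was 0.02 on average in CT and −0.16 in LERKO on the log2 scale. By that measure the LERKO mice were all under the CT mice (p = 0.10 in a two-sided exact permutation test, which cannot go lower with 3 mice per group). The CT mice lay at 0.00 to 0.06, and LERKO replicate 2 was nearest to them at −0.03. Because the comparison was chosen after the values were seen, this p is a description and decides nothing.

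Magt1, an oxidoreductase subunit of the Stt3b complex, had 8.23, 8.45 and 8.06 in CT and 7.85, 8.0 and 7.98 in LERKO. The groups did not overlap, but the gap between them was 0.06 and CT mice were spread over a wider range. Its log2 difference of −0.31 (standard error 0.11) was −0.40 without CT replicate 3 and ranged from −0.40 to −0.21 with any 1 array left out. Tusc3, the alternative to Magt1, stayed below a signal of 100 in every mouse, at 5.21 to 5.70 in CT and 5.21 to 5.44 in LERKO, and was not tested.

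Of the listed subunits that both complexes share, a pair was lower without overlap and a pair differed by less than 0.1. Ddost, which helps to hold the complex together, had 9.60, 9.66 and 9.56 in CT and 9.25, 9.43 and 9.30 in LERKO. Rpn1, which binds substrate proteins, had 8.82, 8.91 and 8.89 in CT and 8.67, 8.72 and 8.51 in LERKO. In both genes every LERKO mouse was below every CT mouse, and the log2 differences were −0.28 (standard error 0.08) for Ddost and −0.24 (standard error 0.08) for Rpn1, each at an adjusted p of 0.703 from limma. Rpn2 had a difference of −0.04 and Dad1 of −0.06, and in both the highest LERKO mouse, replicate 2, lay within the CT range or just above it. The 95% intervals were −0.22 to 0.14 for Rpn2 and −0.23 to 0.10 for Dad1. The genes of the enzyme thus differed in size among themselves, and the difference between them was not tested.

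**Figure D2:**
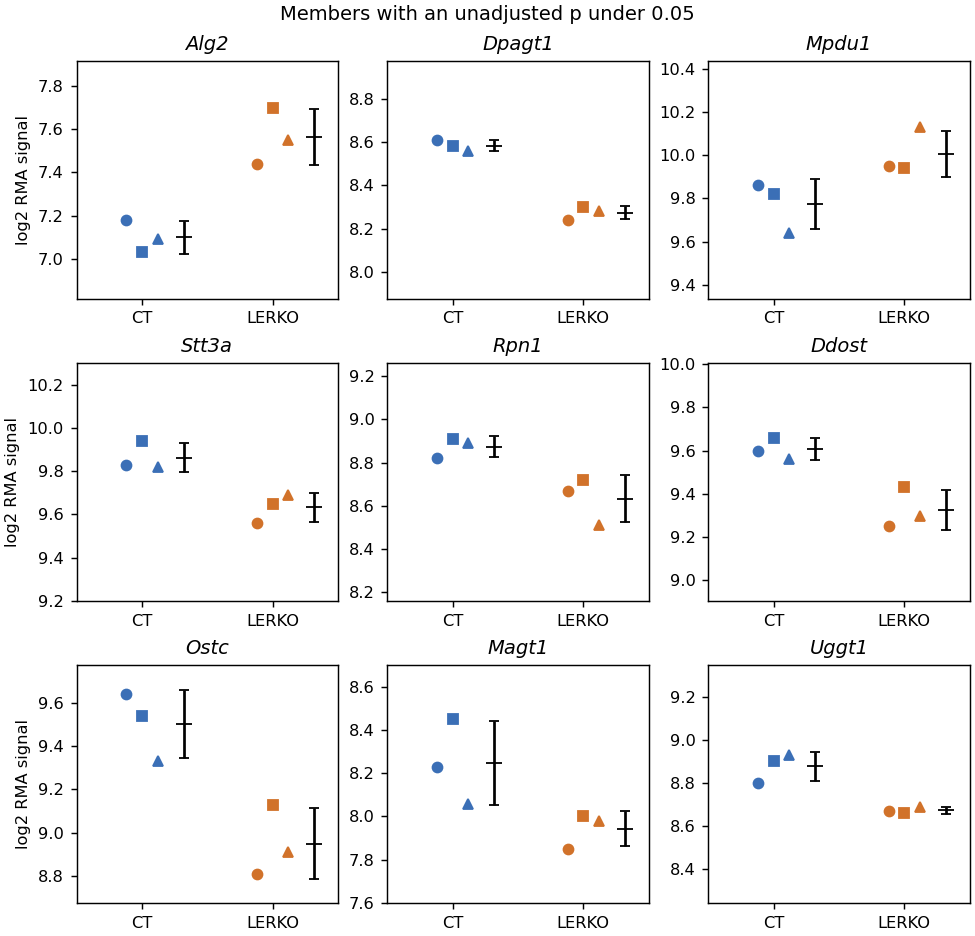
Log2 RMA signal in each mouse for the 9 genes with an unadjusted p under 0.05 (circle, square and triangle are replicates 1, 2 and 3), with the mean and SD of 3 mice beside the points; each panel spans the same range of 1.1 log2 units around its own centre. Alg2 and Mpdu1 are higher in all LERKO mice and the other 7 are lower; the Dpagt1 groups are 0.27 apart.

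Lipid-linked glycan assembly had a median log2 difference of −0.02 over 15 genes (range −0.35 to 0.46), with 9 below and 6 above 0. On the cytosolic face of the membrane the enzymes act in turn. Dpagt1 adds the first N-acetylglucosamine phosphate to dolichol phosphate and is the target of the drug tunicamycin. It had 8.61, 8.58 and 8.56 in CT and 8.24, 8.30 and 8.28 in LERKO. The replicates lay close together, with an SD of 0.02 in CT and 0.03 in LERKO, and the gap between the groups was 0.27. Dpagt1 was 1.24-fold lower in LERKO (95% interval 1.12 to 1.37, adjusted p = 0.703 from limma), and its log2 difference stayed between −0.32 and −0.30 with any 1 array left out. Alg14, which with Alg13 adds the next sugar, had −0.10 with overlapping groups, and Alg13 stayed below a signal of 100, at 4.54 to 4.73 over all mice.

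Alg2 extends the tree by the mannoses that follow the first one. Its signals were 7.18, 7.03 and 7.09 in CT and 7.44, 7.70 and 7.55 in LERKO. All LERKO mice were above all CT mice, by 0.26 at the narrowest point. Alg2 was 1.38-fold higher (95% interval 1.19 to 1.60, adjusted p = 0.703 from limma), had the smallest p of the pathway, at rank 22 of 10633 probe sets, and the difference was 0.40 to 0.53 with any 1 array left out. Alg11, which adds the last mannoses on this face, had a difference of −0.02 (95% interval −0.20 to 0.17). Along this face the differences thus lay below 0 for Dpagt1 and Alg14, above 0 for Alg2 and near 0 for Alg11.

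In the lumen of the ER the tree is completed from dolichol-linked mannose and glucose. Alg12, a mannosyltransferase, had 7.30, 6.82 and 6.93 in CT and 6.48, 6.83 and 6.69 in LERKO. Its log2 difference of −0.35 (95% interval −0.71 to 0.004) was the largest of a lower gene in this step, but LERKO replicate 2 lay in the range of the CT mice, and without CT replicate 1 the difference was −0.21. Alg12 was at a signal of 100 or more in 5 of the 6 arrays, and in all 6 arrays for the other 27 genes. The mannosyltransferases Alg3 and Alg9 had differences of 0.00 and −0.04. Alg8, a glucosyltransferase, had −0.15 with overlapping groups, and Alg6, the glucosyltransferase before it, was below 100 in all mice (5.94 to 6.14 in CT, 5.84 to 6.02 in LERKO).

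The donors of these sugars and the dolichol lipid come from a further set of enzymes. Mpdu1, which is needed for the use of dolichol-linked mannose and glucose, had 9.86, 9.82 and 9.64 in CT and 9.95, 9.94 and 10.13 in LERKO. All LERKO mice were higher, by 0.08 at the closest, with a log2 difference of 0.24 (standard error 0.09), or 0.17 without CT replicate 3. Alg5, which makes dolichol-linked glucose, had −0.16 (95% interval −0.36 to 0.04), with all LERKO mice just below all CT mice. Dpm1, Dpm2 and Dpm3, the subunits of the enzyme that makes dolichol-linked mannose, had differences of 0.04, 0.09 and 0.01, and the groups overlapped in all 3. Srd5a3, which makes dolichol, had 0.11, and Dolpp1, which recycles it, −0.03. Dolk, which phosphorylates dolichol, reached 6.61 in CT replicate 2 and stayed below 100 in every mouse.

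**Figure D3:**
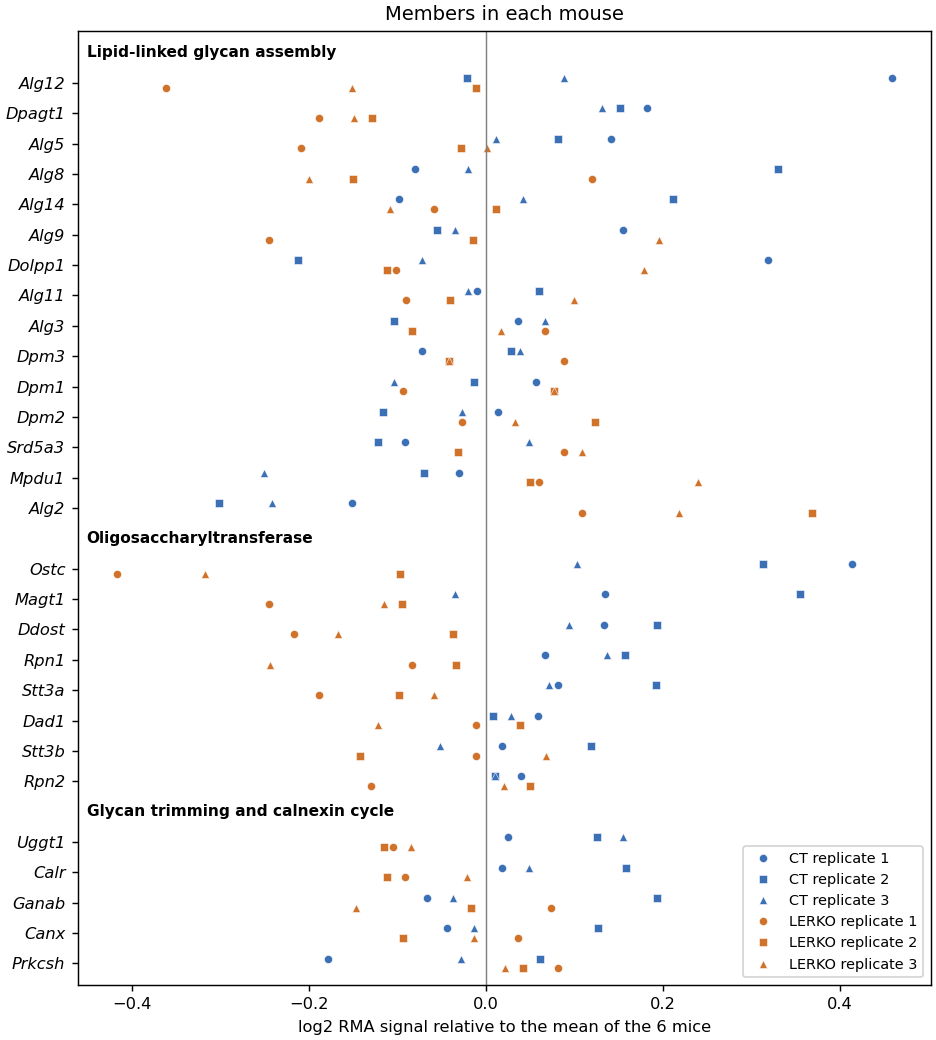
Log2 RMA signal of the 28 tested genes in each of the 6 mice, relative to the mean of these mice (blue, CT; orange, LERKO; circle, square and triangle are replicates 1, 2 and 3). For Ostc, Magt1, Ddost, Rpn1 and Stt3a all orange points lie left of all blue points, and for Alg2 and Mpdu1 they lie to the right.

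Glycan trimming and the calnexin cycle had a median log2 difference of −0.06 over 5 genes (range −0.20 to 0.10). Uggt1 inspects folding and puts a glucose back on glycans of misfolded proteins, which returns them to the lectins. Its signals were 8.80, 8.90 and 8.93 in CT and 8.67, 8.66 and 8.69 in LERKO. The LERKO mice lay within 0.03 of one another and below all CT mice. Uggt1 was 1.15-fold lower (95% interval 1.03 to 1.28, adjusted p = 0.703 from limma), with a log2 difference of −0.24 to −0.18 with any 1 array left out.

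Calr, the soluble lectin chaperone calreticulin, had 11.82, 11.96 and 11.85 in CT and 11.71, 11.69 and 11.78 in LERKO. The groups did not overlap, and the gap was 0.03, with a log2 difference of −0.15 (95% interval −0.32 to 0.02). Canx, the membrane-bound calnexin, had 11.46, 11.63 and 11.49 in CT and 11.54, 11.41 and 11.49 in LERKO. Its groups overlapped, and its difference of −0.05 had a 95% interval of −0.23 to 0.14. The subunits of glucosidase II, which trims the glucoses that the lectins read, had differences of −0.06 (Ganab) and 0.10 (Prkcsh). For Ganab the signals were 9.37, 9.63 and 9.40 in CT and 9.51, 9.42 and 9.29 in LERKO, and for Prkcsh 8.92, 9.16 and 9.07 in CT and 9.18, 9.14 and 9.12 in LERKO. Both overlapped. Mogs, the glucosidase that acts first, was below 100 in all mice, at 6.30 to 6.47 in CT and 6.17 to 6.26 in LERKO, and was not tested.

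Averaged over the genes of a step, relative to the mean of the 6 mice, the oligosaccharyltransferase lay at 0.12, 0.17 and 0.05 in CT mice and at −0.16, −0.05 and −0.12 in LERKO mice on the log2 scale. CT replicate 3, with the pancreas, muscle and squamous markers, was the lowest CT mouse, and LERKO replicate 2, with the adrenal markers, the highest LERKO mouse. Both were thus the mice nearest to the other group. Without both arrays the median difference of the 8 genes was −0.27. For the 9 genes with an unadjusted p under 0.05 over all mice, the log2 difference without both arrays was −0.73 for Ostc, −0.26 for Stt3a, −0.43 for Magt1, −0.35 for Ddost, −0.27 for Rpn1, −0.33 for Dpagt1, 0.39 for Alg2, 0.20 for Mpdu1 and −0.17 for Uggt1. These differences had the same sign as those over all mice. For glycan assembly the means were 0.06, −0.01 and −0.02 in CT and −0.06, 0.00 and 0.03 in LERKO. For trimming and the calnexin cycle they were −0.05, 0.13 and 0.02 in CT and 0.00, −0.06 and −0.05 in LERKO. In these steps the groups overlapped, and the difference between the steps was not tested.

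**Figure D4:**
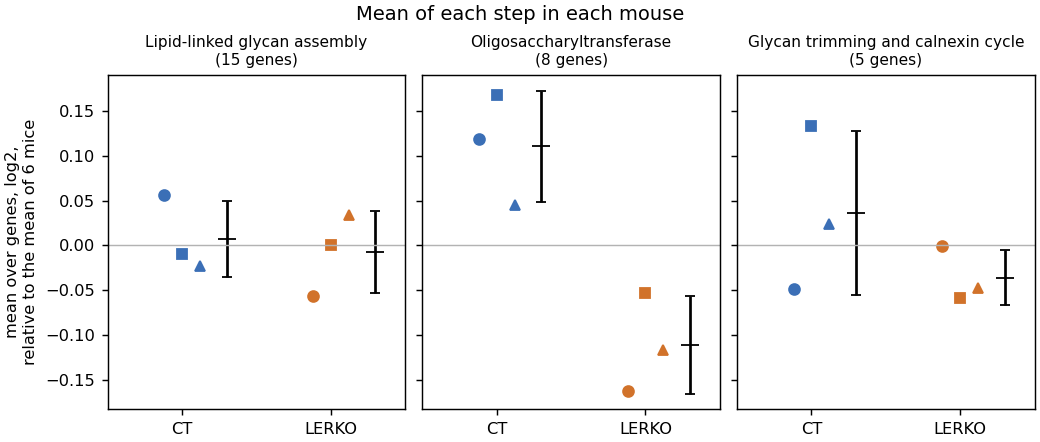
Mean log2 RMA signal over the genes of each step in each mouse, relative to the mean of the 6 mice, with the mean and SD of 3 mice beside the points (circle, square and triangle are replicates 1, 2 and 3). The groups are separate for the oligosaccharyltransferase, where CT mice lie at 0.05 to 0.17 and LERKO mice at −0.16 to −0.05, and overlap for the other steps.

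The promoters of 3 genes, 1 from glycan assembly and both lectin chaperones, hold the ER stress element (ERSE). It is the letters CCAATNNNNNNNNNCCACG on either strand, through which the transcription factors ATF6 and XBP1 are known to act together with NF-Y. Promoter windows of 300 bases, from 250 before to 50 after the start of the gene, were given by RefSeq on GRCm38.p6 for 29 of the 34 genes. Alg12, Canx and Calr hold the element (10.3% of the 29 genes), beside 0.137% of the 27025 genes with a window. The 3 sites are shown for comparison, read in the direction of the motif with its fixed letters in capitals:
Alg12: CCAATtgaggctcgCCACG
Canx: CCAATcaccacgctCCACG
Calr: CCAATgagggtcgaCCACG
The 250 bases before the start of each gene are shown with the site in capitals, 5′ to 3′ on the strand of the gene. All 3 genes lie on the minus strand. In Alg12 (chr15:88819319-88819568) the site begins 220 bases before the start, and in Canx (chr11:50325674-50325923) 145 bases before it. In Calr (chr8:84846932-84847181) the motif runs on the opposite strand, and the end of the site farther from the start lies 162 bases before it.
Alg12: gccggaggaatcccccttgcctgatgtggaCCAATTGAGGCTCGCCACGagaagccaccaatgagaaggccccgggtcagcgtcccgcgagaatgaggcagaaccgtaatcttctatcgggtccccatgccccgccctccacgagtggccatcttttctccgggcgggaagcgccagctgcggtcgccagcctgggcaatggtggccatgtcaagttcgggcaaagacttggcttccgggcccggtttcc
Canx: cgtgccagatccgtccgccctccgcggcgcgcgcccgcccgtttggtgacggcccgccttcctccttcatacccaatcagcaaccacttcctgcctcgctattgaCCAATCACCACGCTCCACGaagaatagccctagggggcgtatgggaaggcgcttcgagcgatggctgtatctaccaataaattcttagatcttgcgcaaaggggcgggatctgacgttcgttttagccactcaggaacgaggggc
Calr: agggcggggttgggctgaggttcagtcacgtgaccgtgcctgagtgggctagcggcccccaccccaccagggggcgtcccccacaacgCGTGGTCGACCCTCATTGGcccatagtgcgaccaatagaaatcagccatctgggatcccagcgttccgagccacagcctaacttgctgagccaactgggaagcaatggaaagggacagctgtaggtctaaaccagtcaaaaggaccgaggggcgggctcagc

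Alg12 and Creld2, a gene induced when unfolded proteins accumulate in the ER, start 328 bases apart on opposite strands, and the ERSE match is the same site in both windows. It lies at chr15:88819520-88819538. Creld2 had 9.07, 9.26 and 8.75 in CT and 7.60, 7.31 and 7.72 in LERKO, without overlap, and a log2 difference of −1.48 (standard error 0.16, adjusted p = 0.190 from limma). Where all 6 arrays had to reach a signal of 100, its adjusted p from limma was 0.0478. Alg12 had −0.35 with overlapping groups, so that genes on either side of 1 site differed by unequal amounts. The lowest mouse for Creld2 was LERKO replicate 2, which was the highest LERKO mouse for Alg12. The 3 pathway genes with a match differed in size, at −0.35 for Alg12, −0.15 for Calr and −0.05 for Canx. Without CT replicate 3 and LERKO replicate 2 these differences were −0.48, −0.14 and −0.03, and that of Creld2 was −1.50. No promoter window is given for Dpagt1, Alg2, Ostc, Tusc3 and Alg11. The related letters ATTGGNCCACG (ERSE-II), TGACGTGG (the core of the unfolded protein response element) and GGTCANNNTGACC (the estrogen response element), each searched on both strands, matched 0 of the 29 genes, beside 0.0444%, 0.714% and 0.074% of all genes with a window. The short letters CCACG alone, which are part of both ERSE motifs, matched 15 of the 29 genes (51.7%), beside 35.5% of all genes with a window. Matches and their absence describe letters in these windows and not binding.

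**Figure D5:**
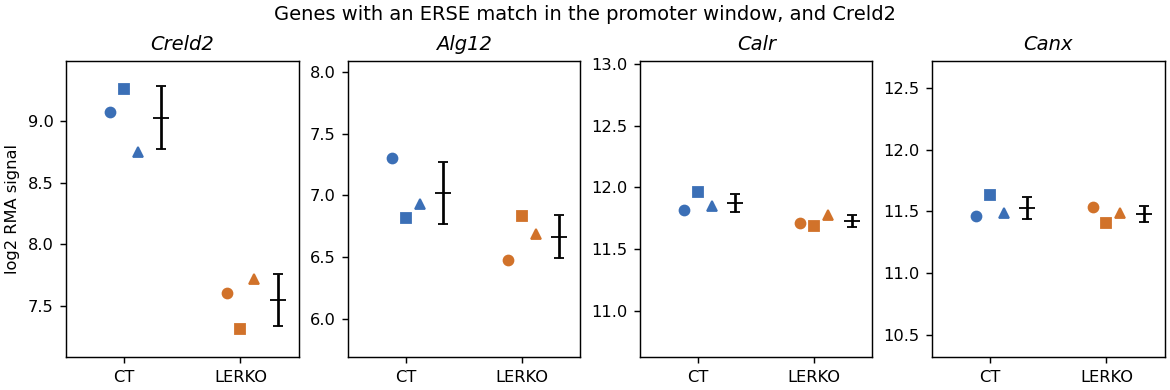
Log2 RMA signal in each mouse of Creld2 and of the 3 pathway genes with an ERSE match in their promoter window (circle, square and triangle are replicates 1, 2 and 3), with the mean and SD of 3 mice beside the points; each panel spans the same range of 2.4 log2 units. Creld2 is separated by 1.03 between the groups, Alg12 and Canx overlap, and Calr is separated by 0.03.

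Other genes of the same steps, from a further list of 15, also lay mostly below 0 in LERKO. Of the 15 genes, 10 passed the filter, 8 were lower and 2 higher, and the median log2 difference was −0.14. At an unadjusted p under 0.05, 4 were lower and 1 higher, beside 4.0% and 2.98% of all probe sets. This list holds the oligosaccharyltransferase subunits Ost4 and Krtcap2, with differences of −0.02 and −0.07 and overlapping groups. The largest differences were those of Mlec, an ER lectin for glycans that carry glucose, and Edem2, which takes part in the mannose trimming that marks proteins for degradation. Mlec had 8.84, 8.86 and 8.47 in CT and 8.40, 8.11 and 8.35 in LERKO, with a difference of −0.44 (standard error 0.14). Mlec has 2 single-gene probe sets, and only the one with the higher mean is given. Edem2 had 8.70, 8.69 and 8.85 in CT and 8.07, 8.54 and 8.38 in LERKO, with a difference of −0.42 (standard error 0.13). In both genes all LERKO mice were below all CT mice. Mlec had −0.56 without CT replicate 3, −0.35 without LERKO replicate 2 and −0.47 without both, and Edem2 had −0.37, −0.53 and −0.47.

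Of 12 genes that supply activated sugars and dolichol, 7 passed the filter. Of these, 4 had a positive and 3 a negative difference (median 0.03), and none reached an unadjusted p under 0.05 (0 of 7). Gnpnat1, of the synthesis of UDP-N-acetylglucosamine, had a log2 difference of −0.16 with overlapping groups, or −0.31 without the 2 arrays with other tissues. Pmm2, which makes the mannose phosphate for the mannose donors, had 0.16 (95% interval −0.03 to 0.34), with all LERKO mice above all CT mice, and the difference was 0.16 without the 2 arrays with other tissues. Of 14 genes of N-glycan maturation in the Golgi, 9 passed, 2 of them higher and 7 lower, with a median of −0.06. At an unadjusted p under 0.05, 1 was lower (11.1%), beside 4.0% of all probe sets. That gene was B4galt1, a galactosyltransferase, which had 8.31, 8.61 and 8.41 in CT and 8.27, 8.17 and 8.14 in LERKO, a difference of −0.25 (standard error 0.10), or −0.26 without both of the arrays with other tissues. Mgat4b, which adds a branch to the glycan, followed with −0.13. At an adjusted p under 0.05 from limma, 0 genes of these 3 lists were called.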

How the data were processed

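Liver RNA of 3 CT and 3 LERKO mice was hybridised to 1 array each. The deposited values are log2 signals, which the authors made with RMA in the oligo package (version not given in the sources used here) by background correction, quantile normalization and summary of probes. Gene names come from the annotation of the platform, with symbols updated through RefSeq gene identifiers (21185 of 21218 single-gene probe sets found). No gene is named from the 1881 probe sets of several genes. Where a gene had several probe sets, as 2 of the genes did, the one with the highest mean was used.

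Probe sets with a signal of 100 or more in at least 1 array were kept. This is 1 reading of the study's methods, which removed genes below a signal of 100 across all samples. Those words can also mean that 100 had to be reached in all 6 arrays, and that reading was run as an alternative. LERKO was compared with CT with the moderated test of limma (version 3.58.1, R 4.3.3), two-sided, and p-values were adjusted by Benjamini-Hochberg over the 10633 kept probe sets. The fit was tested on simulated data. Alternatives covered the filter, the scaling, an intensity trend, the methods' t-test, a replicate block and left-out arrays. Members, lists and named genes were chosen with earlier results of these data known. Values per mouse are given for the 4 genes of largest difference in each step, those with an unadjusted p under 0.05, and Canx, Calr, Stt3a and Stt3b, and from each further list the 2 of largest difference are named. Ganab and Prkcsh are shown under the first of these rules. Creld2, Hyou1, Ost4 and Krtcap2 were named after their values were seen. Protein sequences were not analysed here. Precision is limited by how many arrays there are. The pairwise correlation of arrays was 0.967 to 0.989.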

Additional observations from a re-analysis of the deposited data

How the results depend on the processing

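Of 28 genes, 18 kept the direction of their difference in each of the 16 alternatives that gave one (15 for Alg12, which did not reach 100 in all 6 arrays). In 17 alternatives, the methods' t-test included, 0 of the genes passed an adjusted p of 0.05. Alg2, Dpagt1, Ddost and Ostc had an unadjusted p under 0.05 whichever array was left out. The count of lower genes at that threshold, 7, was 4 (without LERKO replicate 1) to 7 when single arrays were dropped, and that of higher genes, 2, was 1 (without CT replicate 2, CT replicate 3, LERKO replicate 1 or LERKO replicate 3) to 2. The higher count was also 1 with the replicate block, without a signal filter, with the methods' t-test and without CT replicate 3 and LERKO replicate 2 together. Without this pair of arrays the median over the 28 genes was −0.091 in place of −0.059, and the direction was reversed for Alg3 (0.068) and Dpm1 (−0.03). The median of glycan assembly lay between −0.072 (without LERKO replicate 3) and 0.018 when single arrays were dropped, and that of trimming and the calnexin cycle ran from −0.115 to 0.005. Median centring gave Alg3 0.008, and quantile normalization of the kept probe sets gave Alg3 0.016 and Alg11 0.002. With 1 array left out, genes near 0 changed sign, with Alg3 from −0.053 to 0.037, Alg9 from −0.153 to 0.07, Alg11 from −0.072 to 0.023, Dpm1 from −0.001 to 0.097, Dpm3 from −0.038 to 0.027, Dolpp1 from −0.14 to 0.125, Stt3b from −0.105 to 0.003, Rpn2 from −0.077 to 0.013, Ganab from −0.115 to 0.021 and Canx from −0.079 to 0.005. The cause was not tested.

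Over all probe sets, 0 passed an adjusted p of 0.05 in limma and 742 an unadjusted p of 0.05. The adjusted count was 1 with an intensity trend, 3 where all 6 arrays had to reach 100, 0 with the methods' t-test, and 0 to 1 with 1 array left out (1 without LERKO replicate 3). Where all 6 arrays had to reach 100, the adjusted p from limma was 0.0409 for Esr1, 0.0409 for Hyou1 and 0.0478 for Creld2. Hyou1, outside the pathway list, had a log2 difference of −0.99 without overlap. The unadjusted count was 1739 without a signal filter, 455 with the methods' t-test, 1152 without CT replicate 3 and LERKO replicate 2 together, and 416 (without LERKO replicate 1) to 1188 (without CT replicate 3) with 1 array left out. CT and LERKO mice share only a replicate number. Deviations of same-numbered mice correlated at −0.157, −0.0731 and −0.137. With the replicate number as a block, 5 genes were lower and 1 higher at an unadjusted p under 0.05, and 0 passed after adjustment.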
